A study of Mus musculus with 51 samples.

Results

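The CXC chemokines described here are the 10 genes Cxcl1, Cxcl2, Cxcl5, Cxcl9, Cxcl10, Cxcl12, Cxcl13, Cxcl14, Cxcl15 and Cxcl16, taken by their symbols in the annotation of the array. Each was measured by 1 probe set, so that they make up 10 of 22206 probe sets and 10 of the 19505 gene symbols on the array. The study measured lung RNA of male mice aged 6 to 8 weeks on arrays, to follow the response of the sensitized airway to methylene diphenyl diisocyanate (MDI), a reactive chemical of polyurethane production that causes occupational asthma. The skin of every mouse, controls included, had been exposed 2 times to 1% MDI in acetone. Counted from the first skin exposure, on days 15, 16, 19 and again 20, the mice received, through the nose under isoflurane, either reaction products of MDI with glutathione (GSH) or a control solution in which MDI and GSH had been reacted separately. Lungs were collected 48 h after the final dose and had been lavaged and perfused, which removes cells of the airspaces and blood.

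BALB/c mice gave 3 control and 3 MDI arrays, and C57BL/6 mice gave 6 control and 13 MDI arrays. C57BL/6 mice given crofelemer, a plant-derived chloride channel inhibitor, as a nasal dose of 4 mg/kg, 4 h ahead of every airway exposure, gave 5 control and 3 MDI arrays. Mice of the strain B6.129S2-Ighmtm1Cgn/J, which lack a functional immunoglobulin mu heavy chain and are called B-cell deficient here, gave 9 control and 7 MDI arrays. A further 2 of the 51 arrays carried labels that contradict each other and entered no comparison. Values are on the deposited log2 scale, and differences are log2 differences from limma with their SE, called where the adjusted p is under 0.05. The p-values measure the spread between arrays, and the labels do not say in so many words that each array is 1 mouse.

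Array means lay at 7.37 to 7.40 in BALB/c, 7.48 to 7.51 in C57BL/6 without crofelemer, 7.43 to 7.48 with it and 8.02 to 8.07 in B-cell deficient mice, so the 4 sets may have been normalized apart from each other. Levels are therefore tested only within a set, except for crofelemer, which the design sets against its absence across 2 of these levels. Markers matched the labels: the mean of 8 alveolar type 2 cell genes was 17.4 to 18.2 in every array, and the mean of 7 B-cell genes was 5.39 to 6.06 in B-cell deficient mice against 7.27 to 8.90 in C57BL/6 mice without crofelemer. In the B-cell deficient set, 4 of the 9 control arrays stood apart with a narrow spread of values (SD over probe sets of 2.85 to 2.96). The MDI differences of Cxcl9, Cxcl14 and Cxcl5 in that set are given with and without them. Differences of the other genes there are given with them only. The records of the arrays fall into 3 blocks of consecutive accessions. All 9 B-cell deficient controls lie in the second block, which holds 3 of the 7 MDI arrays of that set.

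Chemokines of the CXC family are small secreted proteins that bind G protein-coupled receptors on leukocytes and direct their migration along a gradient. In the lung, Cxcl1, Cxcl2, Cxcl5 and Cxcl15 (lungkine) call neutrophils, most of them through the receptor Cxcr2. Cxcl9 and Cxcl10 are induced by interferon gamma and draw activated T cells and NK cells through Cxcr3, while Cxcl12 and Cxcl13 organise resident and lymphoid cells through Cxcr4 and Cxcr5. Cxcl14 is made by epithelium and stroma without stimulation, and Cxcl16 is a membrane-bound ligand of Cxcr6 that the protease Adam10 sheds.

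The genes also share position. By RefSeq annotation of GRCm38.p6, 7 of the 10 lie on chromosome 5: Cxcl5, Cxcl15, Cxcl1 and Cxcl2 in a row between 90759298 and 90905938, Cxcl9 and Cxcl10 side by side between 92321331 and 92348889, and Cxcl13 at 95956939 to 95961068. Cxcl12 lies on chromosome 6, Cxcl16 on chromosome 11 and Cxcl14 on chromosome 13. RefSeq promoter sequences (250 bases before to 50 bases after the start) were at hand for 8 of the 10. For 7 of these the start of the sequence entry is the 5′ end of the annotated gene. The entry of Cxcl14 is set at a start inside the annotated gene and is not printed.

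Stretches of 100 bases before the start are printed for the 4 members whose promoters held a match to at least 1 of 3 short motifs, so that Cxcl9, which rose after MDI, can be read beside its neighbour Cxcl10 and beside Cxcl1 and Cxcl2. Capitals mark the matches to the kappaB motif GGAATTTCC and to the interferon-type motif GAAANNGAA, and the third motif was the gamma-activated motif TTCNNNGAA, all searched on both strands. All sequences are from RefSeq, GRCm38.p6, written 5′ to 3′ on the strand of the gene.

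Cxcl1, chr5:90891125-90891224, plus strand: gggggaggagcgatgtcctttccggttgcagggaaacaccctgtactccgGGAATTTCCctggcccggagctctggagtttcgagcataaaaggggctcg

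Cxcl2, chr5:90903779-90903878, plus strand: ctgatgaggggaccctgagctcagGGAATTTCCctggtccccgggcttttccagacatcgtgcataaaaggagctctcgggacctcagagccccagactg

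Cxcl9, chr5:92328170-92328269, minus strand: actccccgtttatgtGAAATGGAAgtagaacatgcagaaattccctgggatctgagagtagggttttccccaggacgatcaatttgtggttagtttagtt

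Cxcl10, chr5:92349015-92349114, minus strand: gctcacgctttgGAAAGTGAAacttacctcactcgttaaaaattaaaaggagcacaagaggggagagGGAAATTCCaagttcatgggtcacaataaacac

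Of all 32851 RefSeq promoters of this length, 0.317% held the kappaB motif, 8.56% the interferon-type motif and 8.30% the gamma-activated motif. The kappaB motif lay 70 to 62 bases before the start of Cxcl1 and 96 to 88 bases before that of Cxcl2. In Cxcl10 it lay on the opposite strand, 158 to 150 bases before the start, beside an interferon-type match at 213 to 205. Cxcl9 had only an interferon-type match, at 175 to 167. The windows of Cxcl12, Cxcl13 and Cxcl15 held none of the 3 motifs, and none of the 7 held the gamma-activated motif. The entry of Cxcl14, set at a start inside the gene, held 1 interferon-type and 1 gamma-activated match. The 250 bases before the start held 14 CpG dinucleotides in Cxcl12, 10 in Cxcl1 and 9 in Cxcl2, against 5 in Cxcl10, 3 in Cxcl9 and 2 each in Cxcl13 and Cxcl15. A match is a description of the letters and not a measured binding site.

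After MDI, the family divided. Cxcl9 rose in all 3 sets without crofelemer, Cxcl14 fell in C57BL/6 and in B-cell deficient mice, and Cxcl5 rose in B-cell deficient mice. The Cxcl5 readings there were low within their arrays. The other 7 members passed the test in none of the 4 MDI comparisons, and with crofelemer no member did. In BALB/c mice 1 of the 10 members was called where 0.302% of all probe sets were. In C57BL/6 mice 2 of 10 were called against a background of 14.5%, in B-cell deficient mice 3 of 10 against 36.9%, and in crofelemer-treated mice 0 of 10 against 0.054%, also with 0 at an unadjusted p under 0.05. The share of members called was thus near that of all probe sets in B-cell deficient mice. The median difference of the 10 members was 0.31 in BALB/c, 0.11 in C57BL/6 and 0.20 in B-cell deficient mice, beside -0.01, 0.01 and -0.06 over all probe sets.

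**Figure D1:**
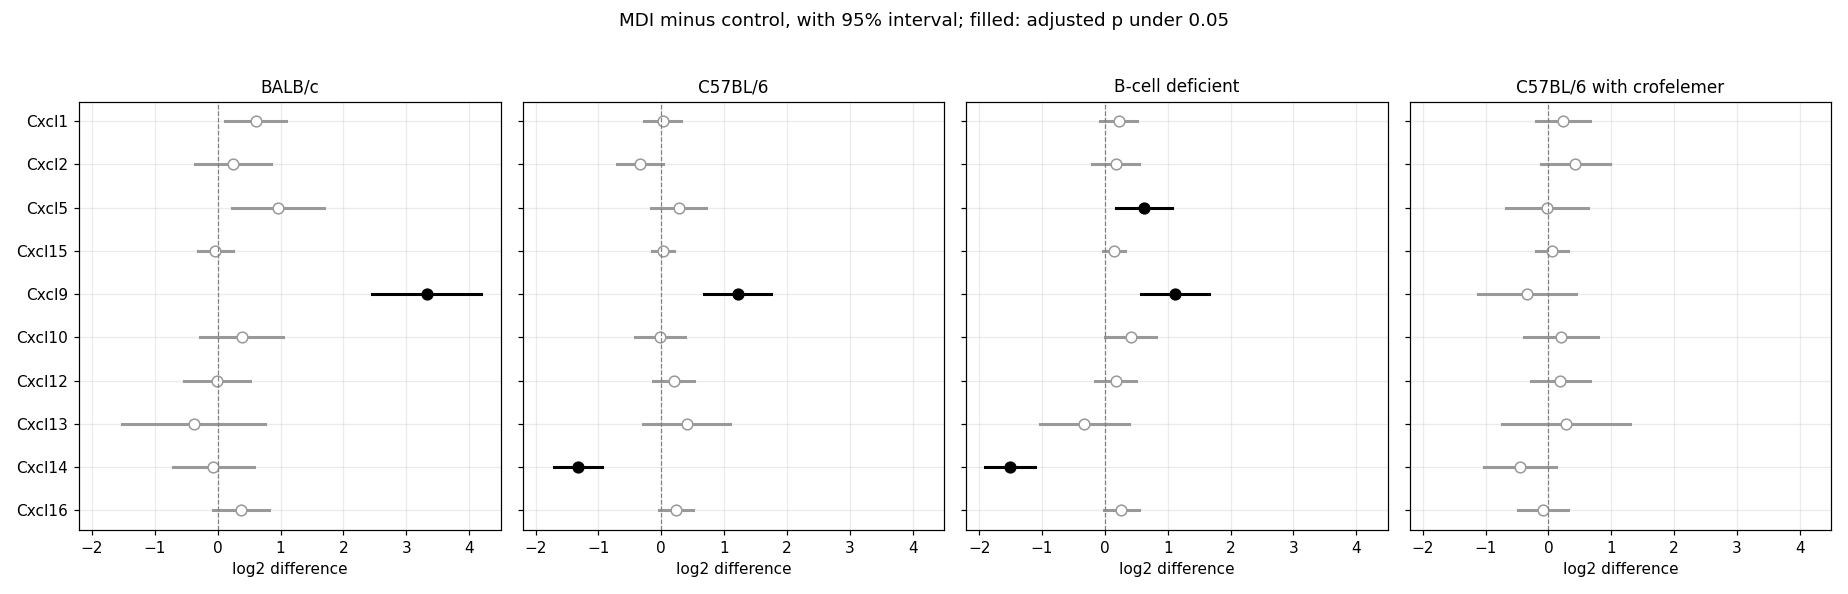
Log2 difference of MDI minus control for the 10 chemokines (rows) in the 4 sets of mice (panels), with its 95% interval from limma; filled points have an adjusted p under 0.05. Cxcl9 lies right of 0 in the 3 sets without crofelemer, at 3.33, 1.21 and 1.12, and Cxcl14 lies left of it at -1.32 and -1.51 in C57BL/6 and B-cell deficient mice but at -0.07 in BALB/c.

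Cxcl9, the interferon gamma-induced ligand of Cxcr3, had the largest difference of the 10 members in BALB/c mice. The BALB/c control arrays read 4.33, 4.37 and 5.02 and the MDI arrays of that strain 7.55, 8.01 and 8.14. The lowest MDI array stood well above the highest control. Within their arrays the controls stood low, at the 24.0th to 34.3rd percentile, and the MDI arrays at the 56.2nd to 61.6th. The log2 difference was 3.33 ± 0.43 (SE, n = 3 against 3), which is 10.0-fold on the deposited scale, with a limma adjusted p of 1.06e-06.

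In C57BL/6 mice Cxcl9 ran from 4.71 over a median of 5.17 to 5.62 in 6 controls and from 5.13 over 6.48 to 7.48 in 13 MDI arrays. The controls stood at the 25.6th to 37.8th percentile of their arrays and the MDI arrays at the 32.4th to 55.0th. The groups overlapped, with 10 of the 13 MDI arrays above every control and the other 3 within their range. The difference was 1.21 ± 0.26 (SE; 2.32-fold, limma adjusted p = 0.000914), and 1.03 within the first accession block (adjusted p = 0.0452). B-cell deficient controls ran from 6.29 over 6.51 to 7.09 and MDI arrays from 7.14 over 7.38 to 8.52. Every MDI array lay above every control here, as was so for 7.03% of all probe sets in either direction. The difference was 1.12 ± 0.27 (SE, n = 7 against 9; 2.17-fold, adjusted p = 0.000975). It was 1.26 without the 4 narrow controls (adjusted p = 0.00432) and 1.27 within the second accession block (adjusted p = 0.000691).

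With crofelemer Cxcl9 passed no test of MDI. The 5 control arrays read 5.91, 6.19, 6.26, 6.28 and 7.96 and the 3 MDI arrays 6.09, 6.15 and 6.30. The MDI arrays lay among the controls, and the difference was -0.34 ± 0.39 (SE; 95% interval -1.12 to 0.44, adjusted p = 0.896). Without the control array at 7.96 it was 0.02 (adjusted p = 0.994). The MDI difference with crofelemer minus that without was -1.55 ± 0.47, with an adjusted p of 0.128, where 0.423% of probe sets were called for this difference. Without that control array it was -1.19 (adjusted p = 0.198).

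By size, the Cxcl9 differences stood in the order BALB/c, C57BL/6, B-cell deficient and crofelemer. The step from C57BL/6 to B-cell deficient mice was -0.10 ± 0.37 (95% interval -0.85 to 0.66, adjusted p = 0.882), where 20.3% of probe sets were called. The step between BALB/c and C57BL/6 was larger, 2.11 ± 0.51 (95% interval 1.10 to 3.13), but its limma adjusted p was 0.120 over all probe sets, of which 0.027% were called. With arrays weighted by their quality it was 2.13 with an adjusted p of 0.00502. None of the 10 members passed the test of any of these 3 differences between sets, and 3, 0 and 3 of them had an unadjusted p under 0.05 (crofelemer, B-cell deficiency and BALB/c, against C57BL/6).

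Cxcl10, the second interferon-induced ligand and neighbour of Cxcl9 on chromosome 5, was not called after MDI in any set. BALB/c controls read 4.91, 4.92 and 5.20 and MDI arrays 5.10, 5.46 and 5.62. The difference of 0.38 ± 0.33 did not pass the test (95% interval -0.27 to 1.04, adjusted p = 0.999). For C57BL/6 mice it was -0.03 ± 0.20 (adjusted p = 0.954) and in B-cell deficient mice 0.41 ± 0.20 (adjusted p = 0.106, or 0.0458 with array weights). Of the 7 B-cell deficient MDI arrays, 2, at up to 6.33, lay above all controls, which ended at 5.48.

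Of the other genes around this receptor, few were called. Their receptor Cxcr3 rose in C57BL/6 mice by 0.45 ± 0.16 (adjusted p = 0.0417), and differed by -0.27 in B-cell deficient mice (adjusted p = 0.176) and by 0.05 in BALB/c mice (adjusted p = 0.999). Ifng, the inducer itself, was not called in any of the 3 sets, with differences of -0.37, 0.09 and 0.24 in BALB/c, C57BL/6 and then B-cell deficient mice. Irf1, a transcription factor induced by interferon, rose in B-cell deficient mice by 0.38 ± 0.11 (adjusted p = 0.00395). It differed by 0.43 ± 0.17 in BALB/c mice, not called (adjusted p = 0.602), and by 0.02 in C57BL/6 mice. The third ligand of this receptor, Cxcl11, was called in none of these sets, with differences of 0.17, 0.26 and -0.21.

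Lists of cell markers moved beside Cxcl9. Of 9 macrophage and monocyte markers, 3 rose in BALB/c, 6 rose and 1 fell in C57BL/6, and 6 rose in B-cell deficient mice, and with crofelemer none was called. Of 7 T-cell markers, 0, 4 and 6 rose. In bulk lung, more cells of a type and more RNA per cell cannot be told apart. The mean of the macrophage and monocyte list ran from 8.92 to 9.15 in BALB/c controls and from 9.92 to 10.1 in BALB/c MDI arrays. It ran from 9.29 to 10.4 against 10.0 to 10.9 in C57BL/6, and from 8.84 to 9.89 against 10.5 to 11.0 in B-cell deficient mice. None of its 9 genes was near the floor of the scale in any group, and their part in the Cxcl9 result was not tested.

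Over the 49 arrays, each centred on the mean of its set, the genes whose pattern was most like that of Cxcl9 among 18454 genes were Dnase1l3 (r = 0.793), C1qa (r = 0.792) and C1qc (r = 0.783). Dnase1l3 is a secreted DNA nuclease of macrophages and dendritic cells, and C1qa and C1qc encode chains of complement C1q, which macrophages make. With arrays centred on their own group, which takes out the MDI difference, these values were 0.591, 0.581 and 0.61.

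Cxcl14, a chemokine made by resting epithelium and stroma, went the other way. The 6 C57BL/6 controls ran from 9.85 over a median of 10.7 to 11.41 and the 13 MDI arrays from 8.55 over 9.48 to 10.02. All but 3 of the MDI arrays lay below every control. The difference was -1.32 ± 0.19 (SE; 2.50-fold lower, limma adjusted p = 2.88e-06), and -1.46 within the first accession block.

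Cxcl14 in B-cell deficient mice ran from 11.07 over 11.32 to 12.00 in 9 controls and from 9.38 over 9.94 to 10.58 in 7 MDI arrays. The groups did not overlap. The difference was -1.51 ± 0.20 (2.84-fold lower, adjusted p = 5.3e-08). It was -1.61 without the 4 narrow controls and -1.26 within the second accession block. The fall differed from that in C57BL/6 mice by -0.18 ± 0.27 (95% interval -0.74 to 0.37, adjusted p = 0.669).

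No fall was called in BALB/c mice. Cxcl14 read 8.05, 8.54 and 8.54 in controls and 8.13, 8.33 and 8.47 after MDI, so that the MDI arrays lay inside the range of the controls. The difference was -0.07 ± 0.32 (95% interval -0.71 to 0.57, adjusted p = 0.999). The difference of the effects, BALB/c minus C57BL/6, was 1.26 ± 0.37 (95% interval 0.51 to 2.00), with an adjusted p of 0.299. With crofelemer Cxcl14 read 8.72, 8.81, 9.01, 9.40 and 9.56 in controls and 8.42, 8.52 and 9.02 after MDI, a difference of -0.45 ± 0.28 (adjusted p = 0.740). In both sets without a called fall the controls already stood low: they averaged 8.38 ± 0.28 (SD, n = 3) in BALB/c and 9.10 ± 0.37 (n = 5) with crofelemer, against 10.7 ± 0.53 (n = 6) in C57BL/6 and 11.4 ± 0.32 (n = 9) in B-cell deficient mice.

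Ranked within each array, which does not depend on a shift of the whole array, the Cxcl14 probe set stood on average at the 63.1st percentile of all probe sets in BALB/c controls and the 70.5th in crofelemer controls. In C57BL/6 controls it stood at the 81.4th and in B-cell deficient controls at the 85.0th. After MDI the 4 sets lay between the 62.5th and the 72.5th percentile. These levels were not tested across sets, other than for crofelemer.

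The fall of Cxcl14 also stood beside changes in marker lists. Of 5 endothelial markers, 4 fell in C57BL/6 mice after MDI, and 4 fell and 1 rose in B-cell deficient mice. Of 6 fibroblast and smooth muscle markers 5 rose in each of these sets. None of these 11 markers was called in BALB/c mice. Of 6 club and goblet cell markers, 3 rose and 2 fell in both C57BL/6 and B-cell deficient mice, and 3 rose in BALB/c mice. Over all probe sets 14.5%, 36.9% and 0.302% were called in C57BL/6, B-cell deficient and BALB/c mice. The part of these markers in the Cxcl14 result was not tested. The genes most like Cxcl14 over the 49 set-centred arrays were Dpysl2 (r = 0.812), Krt80 (r = 0.799) and Timp3 (r = 0.795), of which Krt80 is a keratin and Timp3 an inhibitor of matrix metalloproteinases. Centred on the group they fell to 0.373, 0.472 and 0.381.

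**Figure D2:**
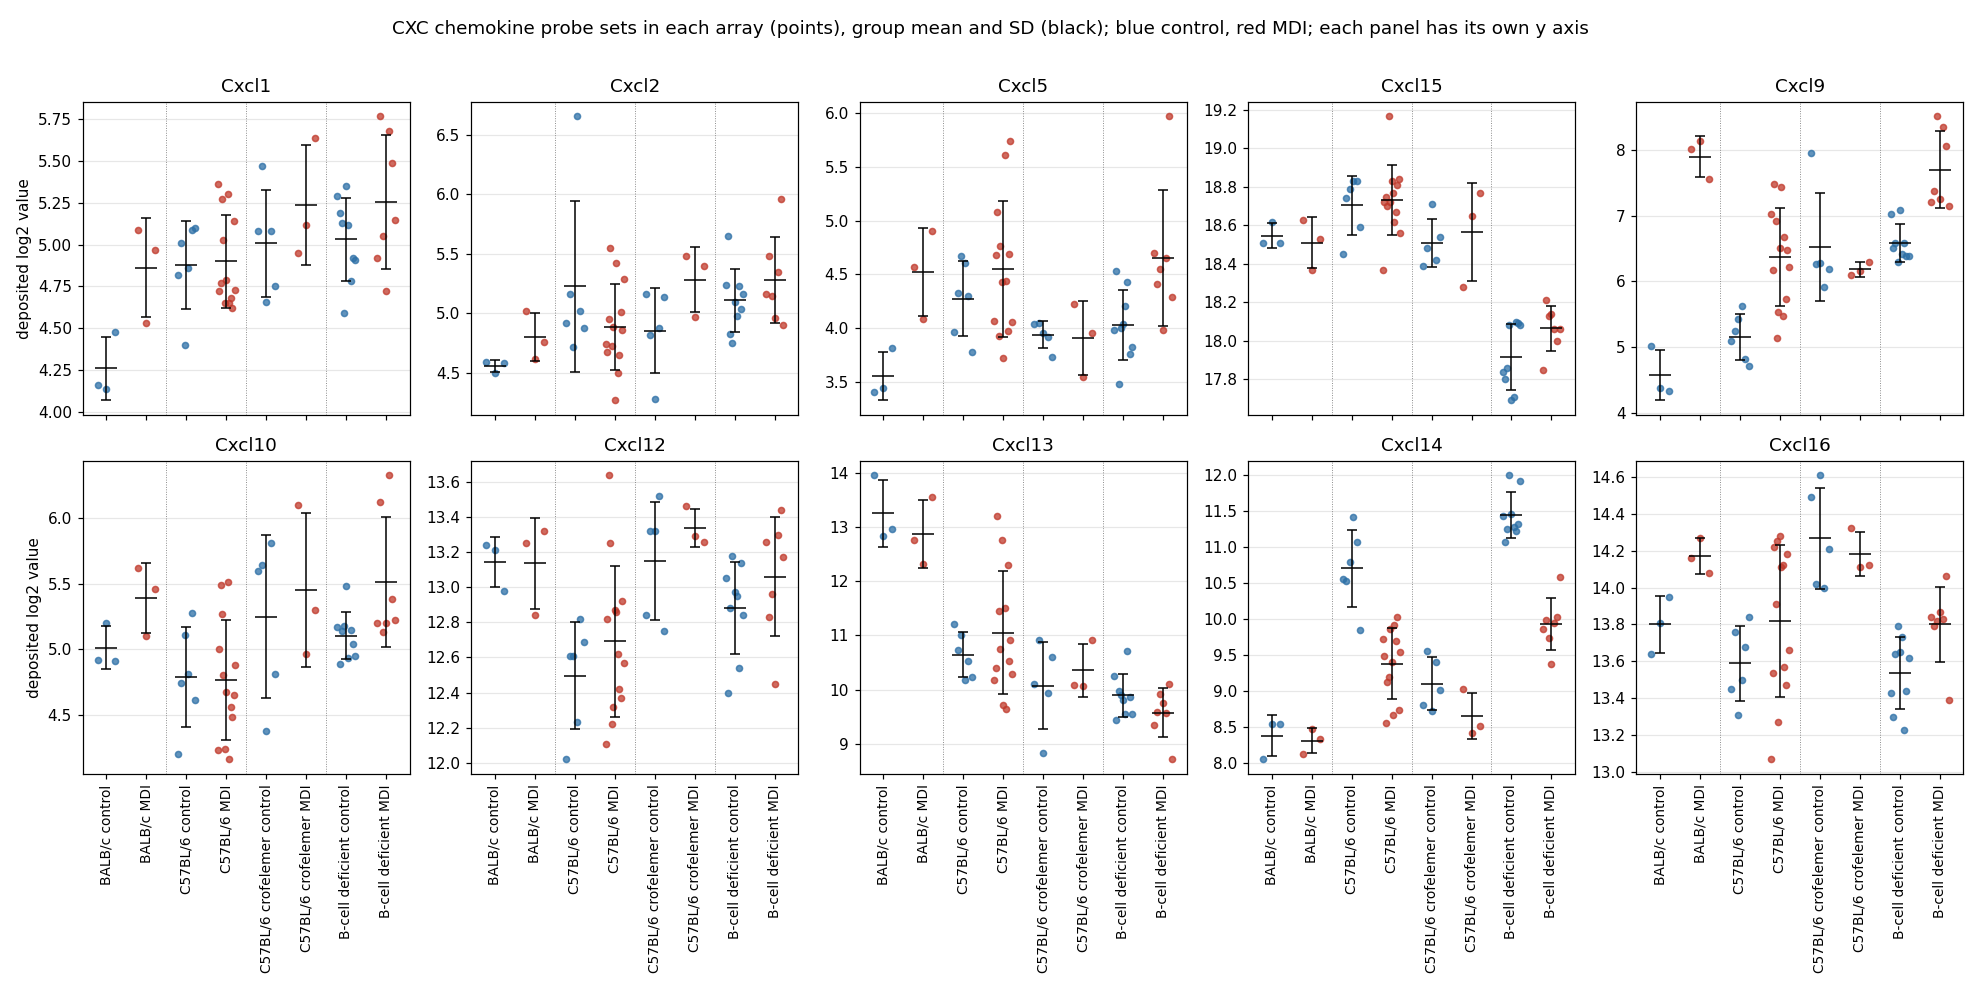
Deposited log2 value of each chemokine in every array (points) in the 8 groups, with the group mean and SD (black); blue points are control arrays and red points MDI arrays. In the Cxcl9 panel the BALB/c MDI arrays, at 7.55 to 8.14, stand clear of the controls at 4.33 to 5.02, and in the Cxcl14 panel all B-cell deficient MDI arrays lie under 11.07, the lowest control.

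Among the members that call neutrophils (Cxcl1, Cxcl2, Cxcl5 and Cxcl15), Cxcl5 was the only gene called after MDI, and in 1 set. Among B-cell deficient mice it ran from 3.49 over 4.00 to 4.53 in controls and from 3.99 over 4.55 to 5.97 after MDI. Within their arrays these controls stood near the floor, at the 0.748th to 8.9th percentile, and the MDI arrays at the 4.24th to 32.5th. Of the 7 MDI arrays, 4 lay above all controls. The difference was 0.62 ± 0.22 (1.54-fold, adjusted p = 0.0256), and 0.75 without the 4 narrow controls (adjusted p = 0.0440). Without the MDI array at 5.97 it was 0.40 and no longer called (adjusted p = 0.137), and without control replicate 3 its adjusted p was 0.0524. Cxcl5 in BALB/c mice read 3.41, 3.45 and 3.82 in controls and 4.09, 4.57 and 4.90 after MDI. These groups did not overlap, which held for 14.3% of all probe sets, and the difference of 0.96 ± 0.36 had an adjusted p of 0.516. For C57BL/6 mice the difference was 0.28 ± 0.22 (adjusted p = 0.454), with 13 MDI arrays spread from 3.73 to 5.74.

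The genes most like Cxcl5 over the 49 set-centred arrays were Tjp3 (r = 0.732), Mmp13 (r = 0.665) and Trem2 (r = 0.647). Tjp3 encodes a tight junction protein, Mmp13 a collagenase and Trem2 a receptor of macrophages. With group-centred arrays the values were 0.680, 0.594 and 0.499.

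Cxcl1 and Cxcl2, the inducible neutrophil chemokines with the kappaB match before their start, were called in no comparison. Cxcl1 in BALB/c mice read 4.14, 4.16 and 4.48 in controls and 4.53, 4.97 and 5.09 after MDI, a difference of 0.60 ± 0.24 (adjusted p = 0.576). Cxcl2 read 4.50, 4.58 and 4.59 in controls and 4.62, 4.76 and 5.02 after MDI, a difference of 0.24 ± 0.30 (adjusted p = 0.999). In both genes the MDI arrays all lay above the controls, in Cxcl2 narrowly. C57BL/6 mice differed in Cxcl1 by 0.02 ± 0.14 and in Cxcl2 by -0.34 ± 0.18 (adjusted p = 0.231). The Cxcl2 value rested on 1 control array at 6.66, without which it was -0.05. B-cell deficient mice had differences of 0.22 ± 0.15 and 0.17 ± 0.19, with adjusted p-values of 0.234 and 0.495.

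All readings of Cxcl1, Cxcl2, Cxcl5 and Cxcl10 lay below the median of the probe sets of their array, at most at the 47.2nd percentile, and no detection call was used here. At the other end, Cxcl15 (lungkine), which bronchial epithelium makes, read 17.69 to 19.17 in every array, at or above the 99.8th percentile. Its differences after MDI were -0.04 ± 0.14 in BALB/c, 0.03 ± 0.08 in C57BL/6 and 0.15 ± 0.09 in B-cell deficient mice, none called (adjusted p of 0.999, 0.875 and 0.179).

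Other genes of the neutrophil axis fell in C57BL/6 mice. Cxcr2, the receptor of Cxcl1, Cxcl2 and Cxcl5, fell by 1.15 ± 0.37 on the log2 scale there (adjusted p = 0.0264), and Ppbp, a platelet-borne ligand of it, fell by 1.20 ± 0.36 (adjusted p = 0.0173). Il1b, a cytokine that induces these chemokines, fell by 1.46 ± 0.36 (adjusted p = 0.00402). These 3 genes were not called in B-cell deficient mice, at 0.38, 0.80 and 0.82. The difference between the effects in B-cell deficient and C57BL/6 mice was called for each, as for 20.3% of all probe sets. It was 1.53 ± 0.52 for Cxcr2, 2.01 ± 0.51 for Ppbp and 2.27 ± 0.52 for Il1b (limma adjusted p of 0.0318, 0.00504 and 0.00211). Of 9 neutrophil markers, 1 rose and 1 fell in C57BL/6 mice, 1 rose in B-cell deficient mice and none was called in BALB/c mice. Over all probe sets 14.5%, 36.9% and 0.302% were called in these sets. The neutrophil list ran from 7.94 to 9.97 in C57BL/6 controls and from 7.36 to 10.4 after MDI, with Camp and Mpo near the floor in all groups. Its part in the values of Cxcr2 and Il1b was not tested. Cxcl3, a close relative of Cxcl1 and Cxcl2, rose by 0.38 ± 0.13 in C57BL/6 (adjusted p = 0.0473) and by 0.60 ± 0.14 in B-cell deficient mice (adjusted p = 0.00059).

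Cxcl12, the constitutive stromal ligand of Cxcr4, passed no test of MDI. It read 12.98, 13.21 and 13.24 in BALB/c controls and 12.84, 13.25 and 13.32 after MDI, and the differences were -0.01 ± 0.26, 0.19 ± 0.16 and 0.18 ± 0.16 in BALB/c, C57BL/6 and then B-cell deficient mice. None was called, and the 95% intervals ran from -0.53 to 0.52, -0.12 to 0.51 and -0.15 to 0.50. Of its receptors, Cxcr4 rose in B-cell deficient mice by 0.66 ± 0.16 (adjusted p = 0.00137) and differed by 0.24 ± 0.16 in C57BL/6 mice (adjusted p = 0.341). The difference between these 2 effects was 0.41 ± 0.23 and was not called (adjusted p = 0.188). Ackr3, the scavenging receptor of Cxcl12, fell in C57BL/6 mice by 1.14 ± 0.22 on the log2 scale (adjusted p = 0.000261), differed by -0.80 in BALB/c mice (adjusted p = 0.797), and by 0.18 in B-cell deficient mice (adjusted p = 0.568). For Ackr3 the difference between the effects in B-cell deficient and C57BL/6 mice was called, at 1.31 ± 0.32 (adjusted p = 0.00332).

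Cxcl13, the ligand of Cxcr5 that draws B cells into follicles, was not called in any comparison and varied most between arrays of 1 group. BALB/c mice read 12.84, 12.97 and 13.97 in controls and 12.32, 12.76 and 13.56 after MDI (difference -0.38 ± 0.57, adjusted p = 0.999). C57BL/6 controls ran from 10.18 over 10.63 to 11.22 and the 13 MDI arrays from 9.65 over 10.75 to 13.20. The MDI arrays spread to both sides, with 5 above all controls and 3 below, and their SD was 1.13 against 0.42 in controls. The difference was 0.40 ± 0.34 (95% interval -0.29 to 1.09, adjusted p = 0.492), and 0.22 without the array at 13.20. B-cell deficient controls ran from 9.44 over 9.86 to 10.72 and MDI arrays from 8.71 over 9.58 to 10.11, with no array above the controls and a difference of -0.32 ± 0.35 (adjusted p = 0.488).

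Across the sets, Cxcl13 controls averaged 13.3 ± 0.62 (SD, n = 3) in BALB/c, 10.6 ± 0.42 (n = 6) in C57BL/6, 10.1 ± 0.80 (n = 5) with crofelemer and 9.89 ± 0.40 (n = 9) in B-cell deficient mice. Within the arrays this was the 93.8th, 81.0th, 78.2nd and 73.4th percentile on average. BALB/c arrays, at the 90.4th percentile or higher, lay above every control array of the other sets, while the order of the other 3 control groups was within their spread on the deposited scale. Of the C57BL/6 MDI arrays, 3, at 12.31, 12.77 and 13.20, also reached the 90.4th percentile. Cxcr5 averaged 6.91 ± 0.39 in C57BL/6 controls and 4.59 ± 0.36 in B-cell deficient controls, a set read on a higher scale, and was not called after MDI in any set. These levels were not tested across sets.

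**Figure D3:**
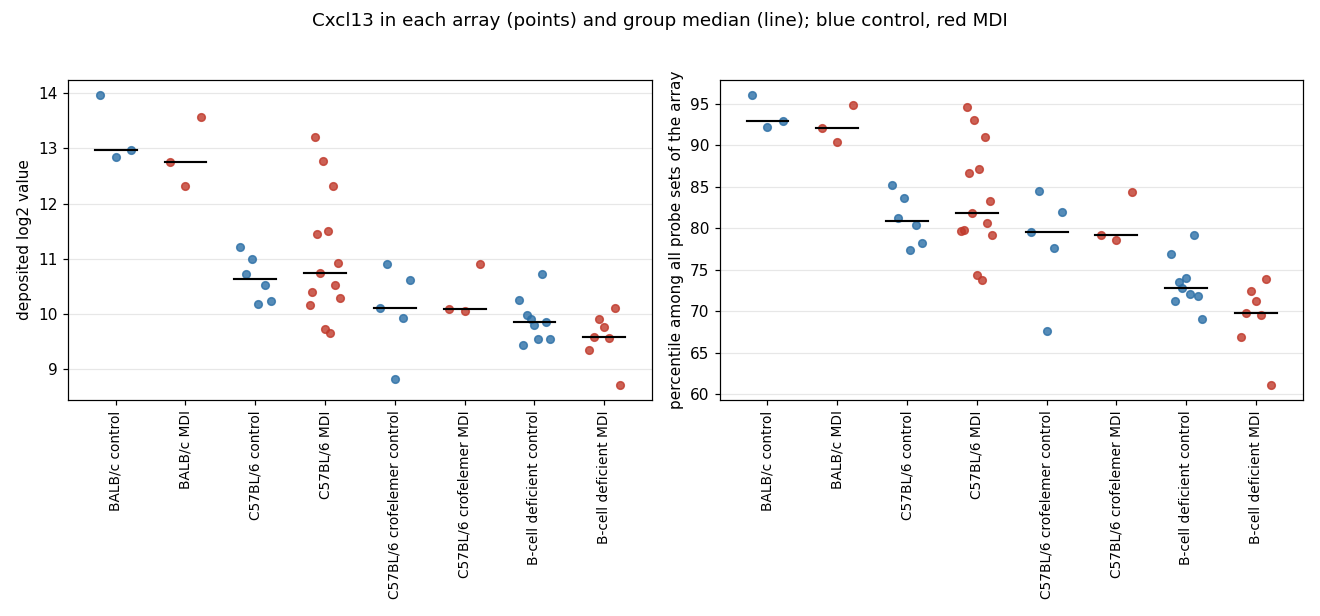
Cxcl13 in every array (points) with the group median (line), as the deposited log2 value (left) and as the percentile among the 22206 probe sets of the array (right); blue points are control arrays and red points MDI arrays. The BALB/c medians are the highest in both panels, and the 13 C57BL/6 MDI arrays spread from 9.65 to 13.20.

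Cxcl16, the membrane-bound ligand of Cxcr6, had differences above 0 after MDI in the 3 sets without crofelemer, and passed the test in none. It read 13.64, 13.81 and 13.95 in BALB/c controls and 14.08, 14.16 and 14.27 after MDI. The groups did not overlap, and the difference of 0.37 ± 0.22 had an adjusted p of 0.999. The differences were 0.23 ± 0.13 in C57BL/6 mice (adjusted p = 0.280) and 0.26 ± 0.14 in B-cell deficient mice (adjusted p = 0.127, and 0.0368 with the replicate number as a block). Its receptor Cxcr6 rose in B-cell deficient mice by 0.75 ± 0.24 (adjusted p = 0.0121) and differed by 0.64 ± 0.24 in C57BL/6 mice (adjusted p = 0.0595). Its sheddase Adam10 rose in B-cell deficient mice by 0.41 ± 0.14 (adjusted p = 0.0187).

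Counted as a whole, the list of 27 other genes of the CXC pathway, of which 26 were measured, had 3 members that rose and 6 that fell in C57BL/6 mice. In B-cell deficient mice 8 rose and 1 fell, and in BALB/c mice and with crofelemer none was called. The 9 of 26 called stand beside 14.5% of all probe sets in C57BL/6 and 36.9% in B-cell deficient mice, so that in the latter set the share was like that of the array. Its median difference was 0.05, 0.31, 0.16 and 0.04 in these 4, beside medians over all probe sets of 0.01, -0.06, -0.01 and 0.00. Ltb, a lymphotoxin subunit of lymphoid tissue signalling, rose in both C57BL/6 (0.57 ± 0.15, adjusted p = 0.0066) and B-cell deficient mice (1.18 ± 0.15, adjusted p = 5.47e-08). Cxcl17, a mucosal chemokine, rose in B-cell deficient mice by 0.66 ± 0.20 (adjusted p = 0.00854). Nfkbia, a feedback inhibitor of NF-kappaB, fell by 0.77 ± 0.20 on the log2 scale in C57BL/6 mice (adjusted p = 0.00447) and differed by -0.19 in B-cell deficient mice.

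Among control mice, crofelemer went with higher Cxcl9, Cxcl12 and Cxcl16 and lower Cxcl14. These 4 of 10 members were called where 39% of all probe sets were, so the share called was like that of the array as a whole. Cxcl9 ran from 4.71 to 5.62 in 6 C57BL/6 controls, and all 5 crofelemer controls lay above, the lowest at 5.91. The difference was 1.37 ± 0.32 (2.58-fold, adjusted p = 0.000533), and 1.01 without the crofelemer array at 7.96 (adjusted p = 0.0093). Cxcl14 ran from 9.85 to 11.41 without crofelemer, and all 5 crofelemer controls lay below, the highest at 9.56 (difference -1.60 ± 0.24, 3.03-fold lower, adjusted p = 2.18e-07).

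Cxcl16 read 14.00, 14.02, 14.21, 14.49 and 14.61 with crofelemer and at most 13.84 in the 6 controls without (0.68 ± 0.17, 1.60-fold, adjusted p = 0.000834). Cxcl12 read 12.75, 12.84, 13.32, 13.32 and 13.52 with crofelemer, and from 12.02 over 12.61 to 12.82 without. All but 1 of the 5 crofelemer arrays lay above the controls, and the difference was 0.65 ± 0.19 (1.57-fold, adjusted p = 0.0059). Groups that did not overlap were found for 3 of the 10 members and for 20.3% of all probe sets. The 4 differences kept their direction and their call within the first accession block, at 1.26, -1.70, 0.78 and 0.88 for Cxcl9, Cxcl14, Cxcl16 and Cxcl12.

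Among MDI mice, 3 of 10 members were called for crofelemer, against 32.6% of all probe sets. Cxcl12 differed by 0.65 ± 0.21 (adjusted p = 0.0122), Cxcl10 by 0.69 ± 0.26 (adjusted p = 0.0332) and Cxcl14 by -0.72 ± 0.25 (adjusted p = 0.0211). Cxcl12 read 13.26, 13.29 and 13.46 with crofelemer, within the range of 12.11 to 13.64 of the 13 MDI arrays without, and Cxcl10 read 4.96, 5.30 and 6.10 against 4.16 to 5.51. For none of the 10 did the groups separate, as they did for 13.9% of all probe sets. With the replicate number as a block over the 6 arrays that share numbers 1 to 3, none of these 3 calls held (0.48, 0.55 and -0.60, with adjusted p-values of 0.395, 0.409 and 0.224), and 9.67% of all probe sets were called. Without the crofelemer MDI array of replicate 1, Cxcl10 was 0.37 (adjusted p = 0.419) and Cxcl12 0.58 (adjusted p = 0.0820), and without replicate 2, Cxcl14 was -0.61 (adjusted p = 0.122). Without replicate 3 the adjusted p of Cxcl10 was 0.0570 and that of Cxcl14 0.0983. Cxcl9 was not called here, at -0.19 ± 0.34 (adjusted p = 0.719).

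Other genes moved with crofelemer. All 7 B-cell markers and all 5 NK-cell markers fell in both crofelemer comparisons. Over all probe sets 39% were called among controls and 32.6% among MDI mice. The B-cell list averaged 6.42 to 6.67 in crofelemer controls against 7.68 to 8.70 in controls without, and the NK-cell list 6.14 to 6.57 against 7.32 to 8.61. Of 6 fibroblast and smooth muscle markers, 4 rose among controls and 1 fell, Dcn (-1.95 ± 0.25, adjusted p = 5.92e-09). The means of this list were 12.5 to 13.5 without crofelemer and 13.9 to 14.2 with it, and 4 of 5 endothelial markers fell. Cxcr5, which B cells carry, fell by 0.91 ± 0.24 among controls on the log2 scale (adjusted p = 0.00207), and Cxcr2 fell by 2.12 ± 0.45 (adjusted p = 0.000138). The part of these cell markers in the chemokine values was not tested, and crofelemer cannot be told apart from the difference in array level between the 2 sets.

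**Figure D4:**
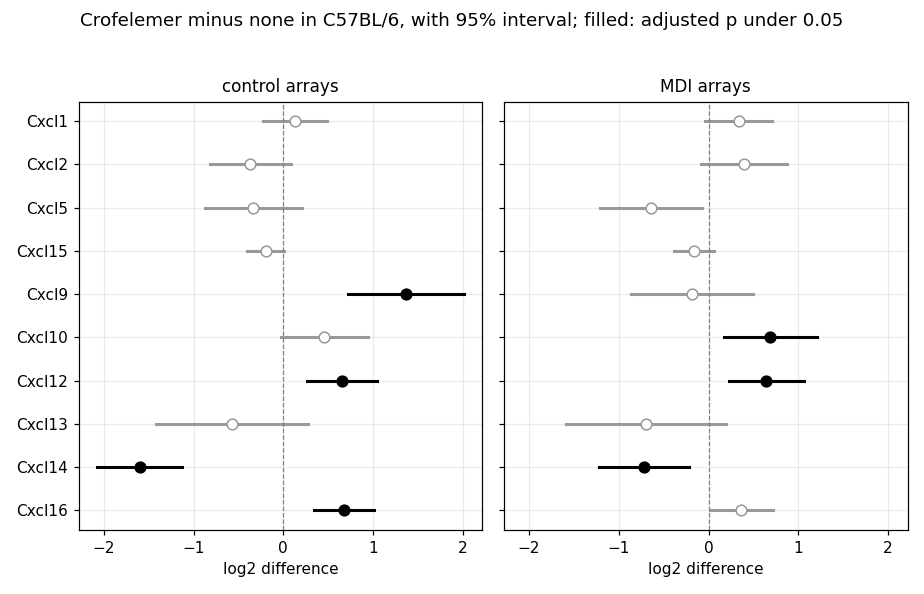
Log2 difference of crofelemer-treated minus untreated C57BL/6 mice for the 10 chemokines (rows), among control arrays (left) and MDI arrays (right), with the 95% interval from limma; filled points have an adjusted p under 0.05. Cxcl14 lies furthest left in both panels, at -1.60 and -0.72, and Cxcl12 lies at 0.65 in both.

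The 13 C57BL/6 MDI arrays differed enough among themselves to ask what moved with Cxcl9, Cxcl13 and Cxcl14. With the B-cell deficient MDI arrays this made 44 relations, chosen after the values were seen. No relation of Cxcl13 passed the adjustment. The endothelial, alveolar type 2, club and goblet cell and platelet lists were not tested in this way. Cxcl14 was lower where the mean of the macrophage and monocyte list was higher (Pearson r = -0.878, permutation p = 0.00046, adjusted over the 44 relations 0.0128; Spearman rho = -0.824, permutation p = 0.00102, adjusted 0.0449). Without the 2 arrays farthest from the median of the list r was -0.761, and within the first accession block -0.901 (n = 12). The 3 arrays with the highest list means, 10.87 to 10.94, had the lowest Cxcl14, 8.55 to 8.73, and the other 10 had list means of 10.03 to 10.60 and Cxcl14 of 9.12 to 10.02. Over those 10, a range narrowed by the values themselves, r was -0.522 (permutation p = 0.122). In the 13 arrays Cxcl14 also ran against the fibroblast and smooth muscle list (r = -0.738, permutation p = 0.00526, adjusted 0.0771). For neutrophils, T cells, lymphoid stroma, B cells and NK cells r was -0.502, -0.458, -0.243, 0.147 and 0.186, none past the adjustment.

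Cxcl9 was higher where the mean of the neutrophil list was higher (r = 0.830, permutation p = 0.00058, adjusted 0.0128), though its rank correlation did not pass the adjustment (rho = 0.703, permutation p = 0.0101, adjusted 0.114). Without the 2 farthest arrays r was 0.719, and within the first accession block 0.854. The 3 arrays with the lowest list means, 7.36 to 7.56, had the lowest Cxcl9, 5.13 to 5.53. The other 10 had list means of 8.50 to 10.38 and Cxcl9 of 5.73 to 7.48. Over those 10, a range narrowed by the values themselves, r was 0.563 (permutation p = 0.0889). In the 13 arrays Cxcl9 also ran with other lists, none past the adjustment. For fibroblasts and smooth muscle r was 0.689 (permutation p adjusted 0.0792), rho 0.732, and r 0.822 without the 2 farthest arrays. For macrophages and monocytes r was 0.685 (adjusted 0.0792) and for T cells 0.599 (adjusted 0.196). For B cells, NK cells and lymphoid stroma r was -0.294, -0.306 and -0.0452.

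In the 7 B-cell deficient MDI arrays neither relation passed the test: r was 0.0895 for Cxcl14 with the macrophage and monocyte list (exact permutation p = 0.888, rho = 0.464 with p = 0.302) and -0.376 for Cxcl9 with the neutrophil list (exact permutation p = 0.386, rho = -0.179 with p = 0.713). Adjusted over the 44 relations these r have p-values of 0.987 and 0.739. In the same 7 arrays Cxcl9 had r = 0.908 with the fibroblast and smooth muscle list (exact permutation p = 0.0444, adjusted 0.244, rho = 0.607). For T cells, macrophages and monocytes, B cells, NK cells and lymphoid stroma its r was 0.764, 0.647, 0.481, 0.0305 and -0.103. Cxcl9 and Cxcl14 themselves ran against each other in the 13 C57BL/6 MDI arrays (r = -0.606, permutation p = 0.0293, adjusted over the 44 relations 0.196; rho = -0.566, permutation p = 0.0476, adjusted 0.299). Without the 2 arrays farthest from the Cxcl9 median r was -0.737, and within the first accession block -0.604 (n = 12). In the 7 B-cell deficient MDI arrays r was -0.175 (exact permutation p = 0.694).

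**Figure D5:**
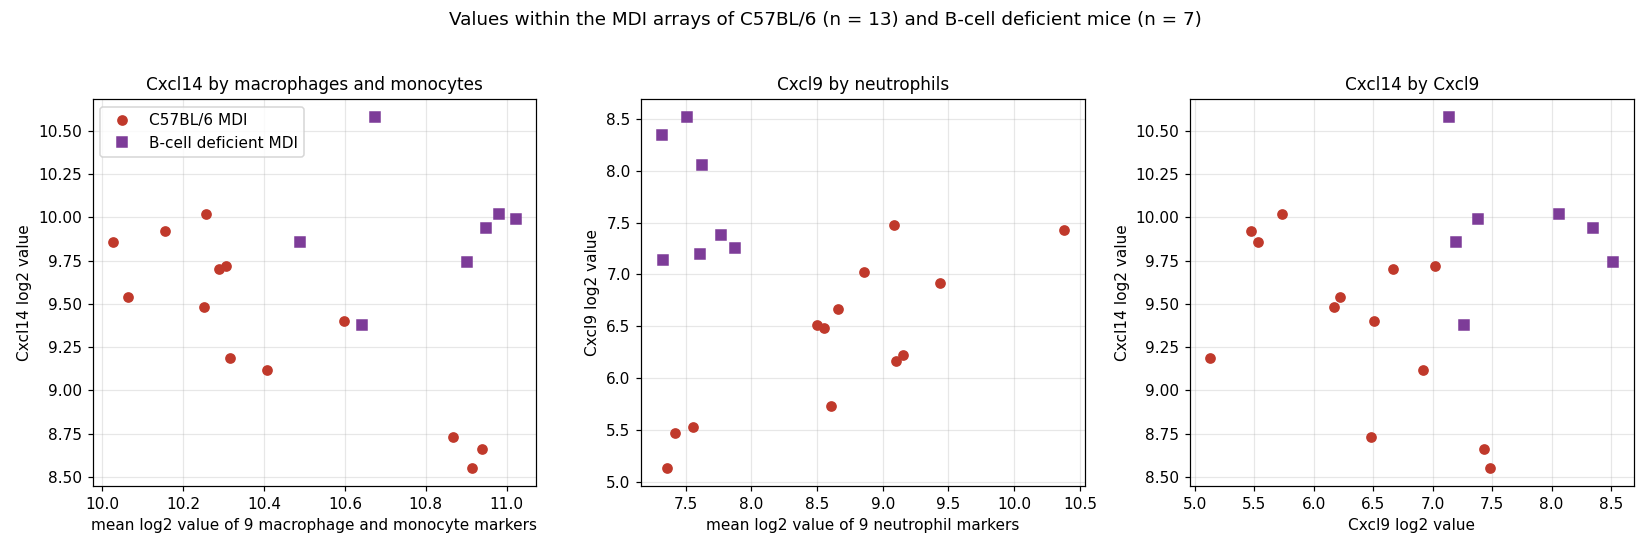
Cxcl14 against the mean of 9 macrophage and monocyte markers (left), Cxcl9 against the mean of 9 neutrophil markers (middle) and Cxcl14 against Cxcl9 (right), each point 1 MDI array of C57BL/6 (circles, n = 13) or B-cell deficient mice (squares, n = 7), all on the deposited log2 scale. In the left panel 3 C57BL/6 arrays with Cxcl14 of 8.55 to 8.73 lie apart from the other 10.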

How the data were processed

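Lung RNA (250 ng per sample, labelled with biotin) was measured on arrays, per the labels' protocols. The authors deposited log2 values with 2 decimals for 22206 probe sets on 51 arrays, made with Transcriptome Analysis Console, per the submitters' processing notes. The normalization is not given in the sources used here, and the log base was inferred from the values, which run from 1.86 to 20.91. The top exceeds what a log2 of raw readings would give, so folds hold for the deposited scale. Nothing was rescaled. The number of arrays limits the precision.

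One limma model (limma 3.58.1, R 4.3.3) of 8 group means over 49 arrays (41 residual degrees of freedom, intensity trend, 2-sided, Benjamini-Hochberg over all probe sets) gave 9 comparisons, and relations across arrays were tested by permutation (100000 resamples, or exact for 7 arrays, scipy 1.17.1). It was tested on simulated data. The members, the gene lists and the tests were chosen with earlier results of these data known. Named were the 10 members, the pathway genes and the 3 genes most like each member called after MDI. Levels and differences of genes with several probe sets are those of the brightest. No pair of arrays was identical (highest correlation 0.996).

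Replicate numbers were checked by correlating the deviations of same-numbered arrays. All 3 pairs exceeded 0.1 only for crofelemer in MDI mice (0.105 to 0.167). These values were not set against those of arrays with different numbers, so they do not establish a pairing, and the labels state none. The main model pairs no arrays, and fits with the replicate number as a block are given as alternatives. Alternatives covered normalization, dim probe sets, array weights, the variance trend, the arrays fitted, accession block, replicate block, the 2 contradictory arrays and each array left out. Sequences are from RefSeq (GRCm38.p6).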

Additional observations from a re-analysis of the deposited data

Results flagged for a closer look

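In 5 of 40 groups of member values, 1 array lay far from the rest of its group by Dixon's criterion, which chance gives in about 1 of 20 groups. Cxcl2 read 6.66 in C57BL/6 control replicate 4, with the next array at 5.16. Cxcl5 read 5.97 in B-cell deficient MDI replicate 6, next 4.70, and its call in that set does not hold without this array. Cxcl9 read 7.96 in crofelemer control replicate 1, next 6.28. Cxcl10 read 5.48 in B-cell deficient control replicate 5, next 5.18. Cxcl16 read 13.39 in B-cell deficient MDI replicate 7, next 13.79, and without that array its difference was 0.33 (adjusted p = 0.0632).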

How the results depend on the processing

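The calls of Cxcl9 (BALB/c, C57BL/6, B-cell deficient, crofelemer controls), Cxcl14 (C57BL/6, B-cell deficient, crofelemer controls), Cxcl12 and Cxcl16 (crofelemer controls) kept direction and call under every alternative that could be fitted to them, and no called value reversed. Leaving out the dimmer probe sets removes Cxcl9 and Cxcl5 from the test, which left 1 member called in B-cell deficient, 0 in BALB/c and 1 in C57BL/6 mice. For MDI in B-cell deficient mice (3 called), fitting only the groups compared gave 5 and quantile normalization 6, the cause not tested. The replicate block gave 2 in BALB/c mice (Cxcl5 added, adjusted p = 0.0341). For crofelemer in MDI mice (3 called), fitting only the groups compared gave 1 and the replicate block 0, and leaving out 1 array gave 1 to 4. The difference between B-cell deficient and C57BL/6 mice had 1 call under quantile normalization (Cxcl2, 0.70, adjusted p = 0.0454), and that between BALB/c and C57BL/6 mice 1 under array weights (Cxcl9), instead of 0. With the 2 contradictory arrays added by their other labels, Cxcl14 lost its call for crofelemer in MDI mice (-0.37, adjusted p = 0.287), and with them added by their titles Cxcl10 did (0.47, adjusted p = 0.112). Cxcl10 also lost it with array weights (adjusted p = 0.0631) and within the first accession block (adjusted p = 0.0508). Under quantile normalization Cxcl14 lost its call for crofelemer in MDI mice (-0.56, adjusted p = 0.0744). There Cxcl5 (-0.76, adjusted p = 0.0317) and Cxcl16 (0.50, adjusted p = 0.0127) gained a call. Cxcl16 also gained it with arrays centred on their median (0.46, adjusted p = 0.0356). Fitting only the groups compared ended the calls of Cxcl10 (adjusted p = 0.0562) and Cxcl14 (adjusted p = 0.0506). Same-numbered arrays in the other 5 comparisons correlated at -0.263 to 0.184, and the replicate block ended no member's call there. The share of all probe sets called for MDI in B-cell deficient mice was 17.0% without the 4 narrow controls, chosen after seeing the data, 20.3% with accession block as a term and 36.9% otherwise; for C57BL/6 mice it was 4.19% with the replicate block and 14.5% otherwise. For crofelemer in controls, the median difference over all probe sets was 0.03 on the deposited values and 0.19 after arrays were centred. Low signal (Cxcl1, Cxcl2, Cxcl5, Cxcl10, and Cxcl9 in BALB/c and C57BL/6 controls) and signal at the top (Cxcl15) limit what can be seen.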

Other observations

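The 2 arrays whose labels contradict each other were given no group. The array titled as MDI with crofelemer, replicate 4, read 6.60 for Cxcl9, 8.81 for Cxcl14 and 10.91 for Cxcl13. The array titled as MDI, replicate 13, read 8.10 for Cxcl9, 9.92 for Cxcl14 and 12.15 for Cxcl13.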
